A study of Drosophila melanogaster with 6 samples.

Results

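The genes described here serve the response to juvenile hormone (JH), its last synthesis step and its breakdown, together with the courtship gene *takeout* (*to*). They were taken by name: *Met*, *gce*, *tai*, *Kr-h1*, *jhamt*, *Jhe*, *Jheh1*, *Jheh2*, *Jheh3* and *to*. These are 10 of the 13453 genes in the table, with 24 of its 28071 transcripts. RNA was measured by poly-A sequencing of whole brains of male *Drosophila melanogaster* 4 to 5 days old, dissected with the blood-brain barrier (BBB) attached. Males with feminized BBB carried *SPG-GAL4/UAS-traF*, so that the female form of Transformer (TraF) was expressed in the subperineurial glia, the tight layer of the fly BBB. Control males had either only the driver (*SPG-GAL4/+*) or only the transgene (*UAS-traF/+*). All 3 genotypes were in a *w1118* background. Per the study's methods, the driver stock and the transgene stock had first been outcrossed over 10 generations to a Cantonized *w1118* stock. Each genotype had 2 biological replicates, every one a pool of many brains. The driver acts in 1 layer of glia, while the RNA came from the entire brain, so that fewer cells of a type and less RNA per cell cannot be told apart.

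JH is made in the corpora allata, a small gland behind the brain. The paralogous proteins Met and Gce are its receptors in flies. With the coactivator Taiman (*tai*) they switch on target genes, of which *Kr-h1*, which encodes a zinc finger factor, is the best known. *jhamt* encodes the methyltransferase that completes the hormone. *Jhe* encodes an esterase and the *Jheh* genes encode epoxide hydrolases, and both kinds of enzyme inactivate JH. *to* encodes a secreted protein related to JH binding proteins and is known for its role in male courtship. The comparisons ask whether RNA of these genes in the brain changes when the BBB is feminized.

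The libraries held between 32839081 and 37608924 estimated counts. Values are given as normalized counts, for which the estimated counts of a library were scaled by its TMM factor and total to the size of the average library, and all levels below are in this unit unless another is named. Marker genes of neurons, of glia and of the subperineurial glia (*moody*, *Mdr65*, *Glut1*) were abundant in all libraries, with 3481 to 3939 normalized counts of *moody*. Expression of the transgene itself was not checked here. *SPG-GAL4/+* replicate 1 stood apart: its log2 ratio to the median of the other 5 libraries had a median of -0.25 over 1633 genes with transcripts under 1 kb and 0.45 over 258 genes with transcripts over 8 kb. *UAS-traF/+* replicate 1 stood apart in digestive enzyme genes of the midgut, a list of 10 genes chosen after the data were seen. Its summed level was 12040 normalized counts in that library and at most 154 in the other 5. For the 10 genes, fold changes of gene sums that rest on either library are given with and without it. For the other genes listed below this was not done.

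By edgeR's quasi-likelihood test, no gene of the 10 passed an adjusted p of 0.1 in feminized males against both controls together, where 0% of the 9777 genes tested passed. All 10 genes passed the filter on low counts. At an unadjusted p below 0.05 there was 1 of the 10, *Met*, against 4.68% of all genes. DESeq2 and limma-voom also called none of the 10. The median log2 fold change of the 10 genes was 0.06, against -0.01 over all genes tested. Against *SPG-GAL4/+* alone none of the 10 was called, where 0.0102% of all genes were, and none had an unadjusted p below 0.05, where 5.84% of all genes had. DESeq2 and limma-voom called none there either. Against *UAS-traF/+* alone none was called either, where 0.102% of all genes were, and 2 of the 10, *Met* and *to*, had an unadjusted p below 0.05, where 7.14% of all genes had. Between the controls, *SPG-GAL4/+* against *UAS-traF/+*, none of the 10 was called, where 0.215% of all genes were, and *Met* alone had an unadjusted p below 0.05, where 7.71% of all genes had. In the last 2 comparisons limma-voom called none and DESeq2 called 1, *Met*, where it called 0.425% and 0.946% of all genes. These comparisons share libraries and are not independent of one another.

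**Figure D1:**
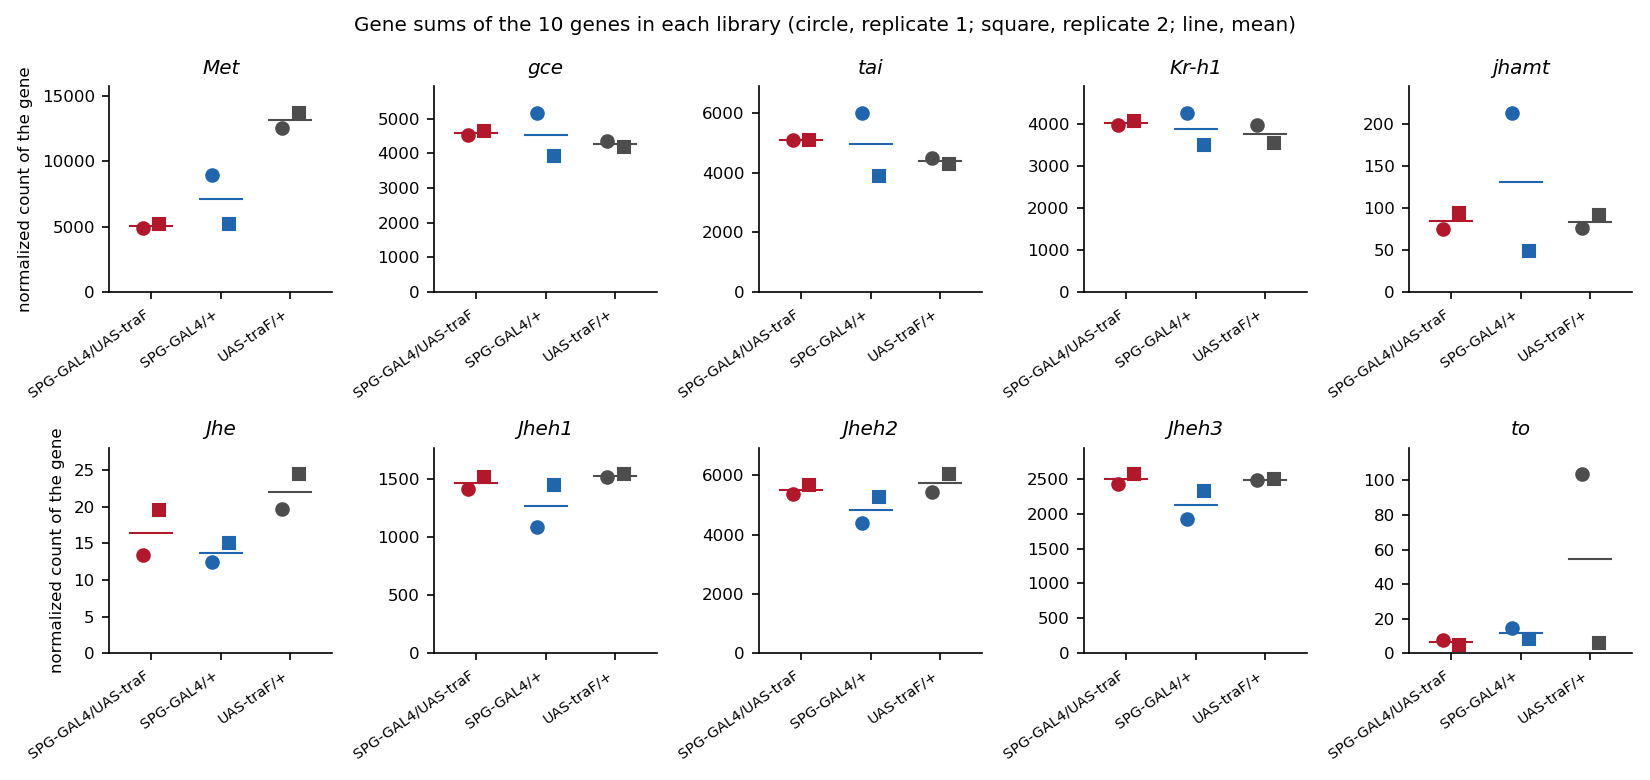
Normalized counts of the 10 genes (vertical axes, each from 0) in every library, by genotype (horizontal axes), with feminized males at the left, circles for replicate 1, squares for replicate 2 and lines for the means. *Met* lies between 4926 and 5230 in feminized males and between 12584 and 13730 in *UAS-traF/+* males, and *to* is high in 1 library of 6.

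Of the receptors, *Met* (FBgn0002723, chromosome X, 11616124 to 11621280, plus strand, in BDGP6.54) differed most. Its sums were 4926 and 5230 normalized counts in feminized males, against 8932 and 5228 in *SPG-GAL4/+* and 12584 and 13730 in *UAS-traF/+*. The feminized libraries lay below both *UAS-traF/+* libraries, whereas *SPG-GAL4/+* replicate 2 was at the level of the feminized males and replicate 1 lay between. The log2 fold change of feminized males was -1.37 (standard error 0.23) against *UAS-traF/+*, a level 2.59-fold lower, and its p of 0.000615 ranked 26 among 9777 genes. The adjusted p was 0.21 in edgeR's quasi-likelihood test, above the threshold, and 5.78e-06 in DESeq2. Against *SPG-GAL4/+* the log2 fold change was -0.48 (standard error 0.23, edgeR adjusted p = 0.94). Against both controls together it was -0.99 (standard error 0.35, edgeR adjusted p = 0.93), in a fit where the difference between the control genotypes adds to the spread.

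The 2 control genotypes did not overlap in *Met* either. The difference of *SPG-GAL4/+* from *UAS-traF/+* males was -0.89 on the log2 scale (standard error 0.23), with an adjusted p of 0.39 in edgeR and 0.026 in DESeq2. All 4 libraries that carry *SPG-GAL4*, with and without TraF, thus lay below both *UAS-traF/+* libraries. In the comparison with *UAS-traF/+* alone, effects on *Met* of TraF, of the driver itself and of the driver line's background cannot be told apart. Both stocks had been outcrossed, as stated above. Leaving out *SPG-GAL4/+* replicate 1 gave -1.36 for feminized males against *UAS-traF/+* and -0.04 against the remaining *SPG-GAL4/+* library. Leaving out replicate 2 in its place gave -1.37 and -0.81. Each of these fits kept a lone library of that genotype and is 1 of the 13 alternatives. Over 13 alternatives, the log2 fold change against *UAS-traF/+* ran between -1.43 and -1.31 and the adjusted p between 5.78e-06 and 1, below the threshold in 5 of them.

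**Figure D2:**
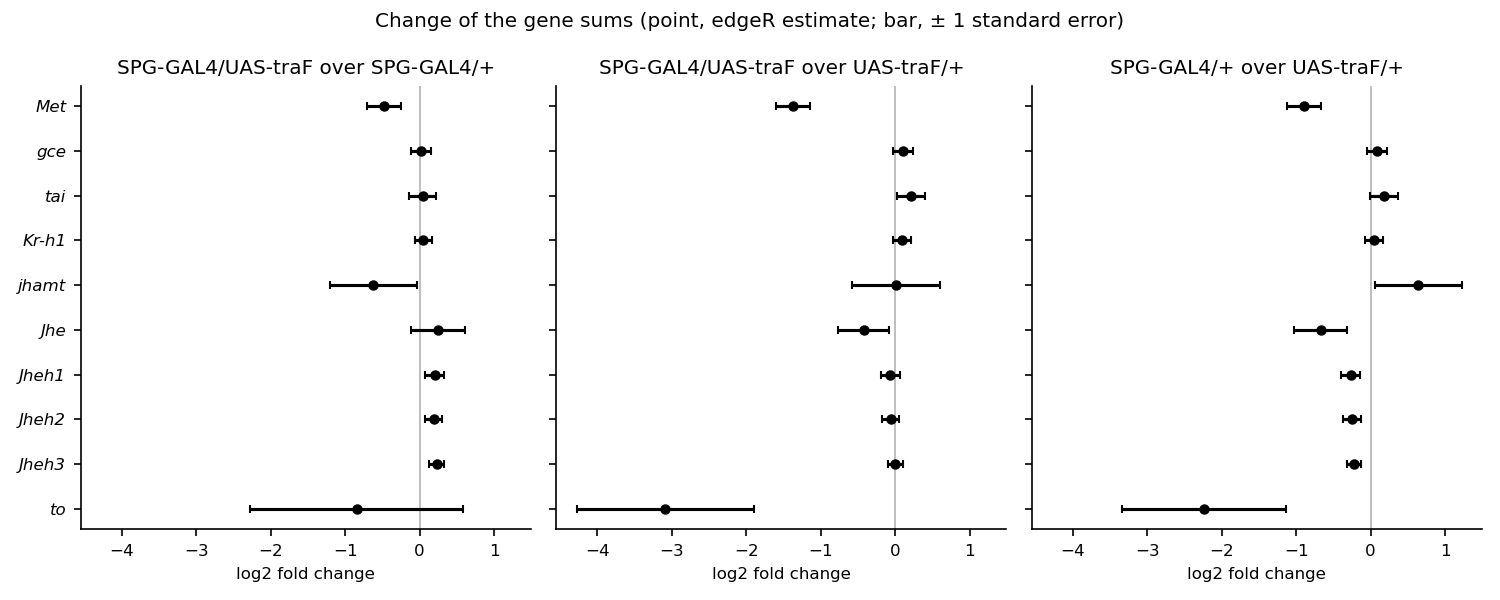
Log2 fold changes of the gene sums (horizontal axes, edgeR estimate with bars of 1 standard error) for the 10 genes in feminized males over *SPG-GAL4/+*, in feminized males over *UAS-traF/+* and in *SPG-GAL4/+* over *UAS-traF/+*. *Met* is at -0.48, -1.37 and -0.89, and the bars of *to* are the widest in each panel.

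*Met* has 2 annotated transcripts with the same coding length of 2148 nt, which differ in their untranslated parts. *Met-RA* had 1230 and 1589 in feminized males, against 2544 and 1663 in *SPG-GAL4/+* and 2927 and 3587 in *UAS-traF/+*. Both feminized libraries lay below all 4 controls, and 14.9% of all transcripts tested had both feminized libraries outside the range of the controls on either side. *Met-RB*, the larger share, had 3694 and 3628 in feminized males, against 6041 and 3663 in *SPG-GAL4/+* and 9713 and 10345 in *UAS-traF/+*. Against both controls the log2 fold changes were -0.93 (standard error 0.31) for *Met-RA* and -1.02 (standard error 0.43) for *Met-RB*, with edgeR adjusted p-values of 0.85 and 0.94. *Met-RA* made up 25% and 30.5% of the gene's counts in feminized males, against 29.6% and 31.2% in *SPG-GAL4/+* and 23.2% and 25.7% in *UAS-traF/+*. Both transcripts lay lower in the feminized libraries than in the *UAS-traF/+* libraries, while the feminized shares lay within the range of the controls.

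The genes around *Met* were examined in the same comparison. In feminized males against *UAS-traF/+*, 0.102% of all genes passed the threshold. Of 35 other tested genes that overlap the 150 kb on either side of *Met*, 1 did: *nod*, a kinesin-like gene, was higher. *nod* had 1183 and 1056 in feminized males and 710 and 666 in *UAS-traF/+* males, or 0.70 higher on the log2 scale (edgeR adjusted p = 0.096). It had 1101 and 1100 in *SPG-GAL4/+* males, again on the side of the feminized males. An unadjusted p below 0.05 was found for 5 of the 35, where 7.14% of all genes had one. Of the 5, *nod*, *rho-4* and *dy* were higher and *Kmn1* and *inaF-B* lower. The median log2 fold change of the 35 genes was 0.08, against -1.37 for *Met*. On the X chromosome were 4 of the 10 genes called against *UAS-traF/+*, where 16.9% of the tested genes lie. Whether the outcrossed lines still differ in sequence there was not tested.

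**Figure D3:**
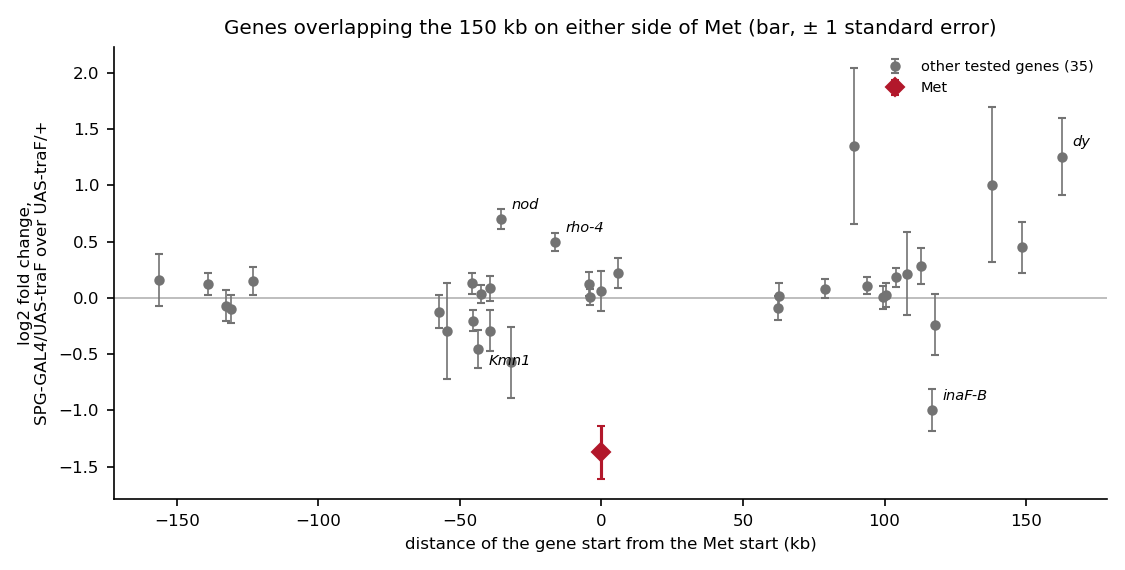
Log2 fold change of feminized over *UAS-traF/+* males (vertical axis, edgeR estimate with bars of 1 standard error) against the distance of each gene's start from the start of *Met* in kb (horizontal axis), for *Met* and the 35 other tested genes overlapping the 150 kb on either side. *Met*, at -1.37, is the lowest of the genes shown, and the 5 others with an unadjusted p below 0.05 are named.

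*gce*, the paralog of *Met* (FBgn0261703, chromosome X, 15297766 to 15319074, plus strand), had 4519 and 4658 in feminized males, against 5171 and 3910 in *SPG-GAL4/+* and 4344 and 4183 in *UAS-traF/+*. The feminized libraries lay within the range of the controls. On the log2 scale they differed by 0.06 (standard error 0.11, edgeR adjusted p = 1.00) against both controls and 0.11 (standard error 0.13, adjusted p = 0.85) against *UAS-traF/+*. Per kilobase of transcript, *Met* stood at 1.21 and 1.28 times the level of *gce* in feminized males, at 1.97 and 1.52 times in *SPG-GAL4/+* males and at 3.22 and 3.67 times in *UAS-traF/+* males. The ratio of the receptor RNAs was lowest in the feminized libraries and highest in those of *UAS-traF/+*.

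*gce* has 4 annotated transcripts, which share a coding length of 2877 nt. *gce-RE* was the main one, with 2825 and 2600 normalized counts in feminized males, against 3023 and 2563 in *SPG-GAL4/+* and 2404 and 2407 in *UAS-traF/+*. Its share of the gene was 59.3% ± 4.6 in feminized males (SD, n = 2), against 59.2% ± 4.2 in controls (SD, n = 4). *gce-RC* took 33.7% ± 7.0 in feminized males and 34.9% ± 1.9 in controls. The minor transcripts varied between replicates. *gce-RG* had 329 and 87 in feminized males, against 92 and 141 in *SPG-GAL4/+* and 181 and 265 in *UAS-traF/+*. *gce-RD* had 63 and 162 in feminized males, against 60 and 0 in *SPG-GAL4/+* and 206 and 81 in *UAS-traF/+*. For both, the feminized replicates differed more than 2-fold from each other.

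*tai*, the coactivator (FBgn0041092, chromosome 2L, 9166778 to 9250211, plus strand), had 5091 and 5089 in feminized males, against 6006 and 3896 in *SPG-GAL4/+* and 4481 and 4275 in *UAS-traF/+*. The *SPG-GAL4/+* libraries lay on either side of all others. The fold change on the log2 scale was 0.13 (standard error 0.16, edgeR adjusted p = 1.00) against both controls and 0.22 (standard error 0.19, adjusted p = 0.81) against *UAS-traF/+*. Without *SPG-GAL4/+* replicate 1 it was 0.28 against both controls (adjusted p = 0.0998), 0.39 against the remaining *SPG-GAL4/+* library (adjusted p = 0.062) and 0.23 against *UAS-traF/+* (adjusted p = 0.083). In those fits 240, 318 and 405 of all genes passed the threshold. Without replicate 2 it was -0.24 against the remaining *SPG-GAL4/+* library (adjusted p = 0.045), so that the direction of *tai* between the genotypes with the driver followed which of the 2 libraries was kept.

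*tai* has 6 annotated transcripts. *tai-RF* carried 77% ± 0.34 of the counts in feminized males (SD, n = 2) and 75% ± 3.2 in controls (SD, n = 4), and *tai-RG* 14.8% ± 4.2 and 18.8% ± 3.0. *tai-RE* had 236 and 240 in feminized males, against 352 and 243 in *SPG-GAL4/+* and 131 and 177 in *UAS-traF/+*, lowest in the genotype without the driver. *tai-RD* had 16.3 and 328.5 in feminized males and 162.5 and 117.8 in *SPG-GAL4/+*, while both *UAS-traF/+* libraries were at 0. With a floor of 3 counts put in for each *UAS-traF/+* library, the mean estimate of *tai-RD* was 56.6-fold higher in feminized males. In *SPG-GAL4/+* males it was 46-fold higher. *tai-RG*, which starts at the same position, had 904 and 600 in feminized males, against 853 and 784 in *SPG-GAL4/+* and 830 and 956 in *UAS-traF/+*. Kallisto divides the reads that both transcripts share, so an estimate of 0 for *tai-RD* does not show its absence. How the reads were divided between them was not tested. The adjusted p for feminized males against *UAS-traF/+* was 0.48 in edgeR and 0.00016 in DESeq2. *tai-RC* had no count in any library, and *tai-RH* had 8.8 normalized counts in 1 feminized library alone. *tai-RD* was thus listed in both genotypes with the driver, with a spread between the feminized replicates wider than any difference between those genotypes.

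*Kr-h1*, the target gene of the receptors (FBgn0266450, chromosome 2L, 6082603 to 6096498, plus strand), had 3971 and 4070 in feminized males, against 4268 and 3501 in *SPG-GAL4/+* and 3984 and 3552 in *UAS-traF/+*. The feminized libraries lay between the lowest and the highest control. On the log2 scale they differed by 0.07 (standard error 0.10, edgeR adjusted p = 1.00) against both controls and 0.09 (standard error 0.12, adjusted p = 0.85) against *UAS-traF/+*. *Kr-h1-RA* made up between 97.8% and 99% of the counts in every library, and *Kr-h1-RB* the rest, with 36 to 88 normalized counts. The genotype means of this target differed by less than the replicate spread of *SPG-GAL4/+*, in the same libraries in which *Met* was 2.59-fold lower in feminized males than in *UAS-traF/+*.

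**Figure D4:**
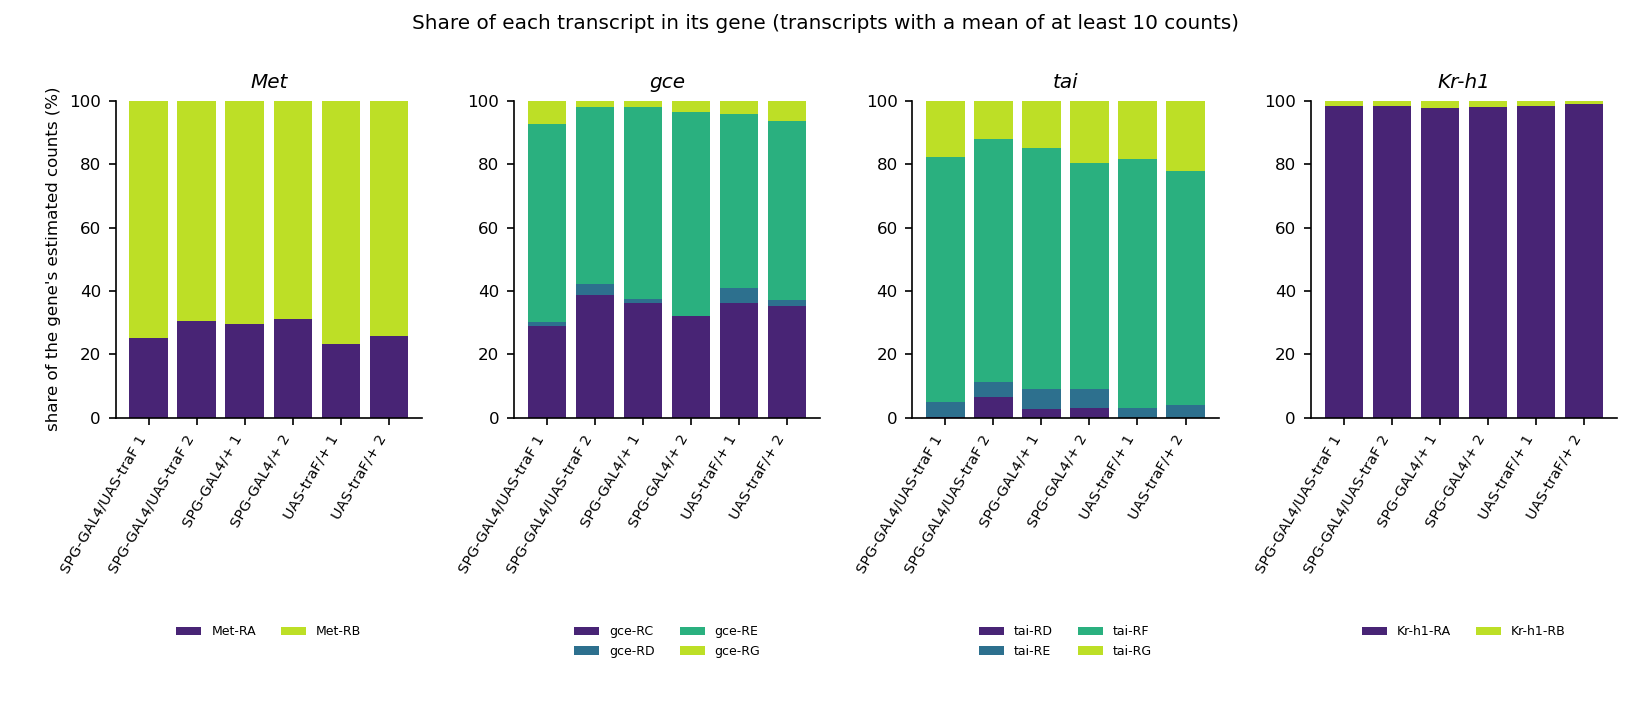
Share of each transcript in the estimated counts of its gene (vertical axes, %) for *Met*, *gce*, *tai* and *Kr-h1* in the 6 libraries (bars, replicates 1 and 2 of each genotype with feminized males at the left), for transcripts averaging 10 counts or more. *Met-RA* takes between 23.2% and 31.2% in the 6 libraries, and no counts are credited to *tai-RD* in either *UAS-traF/+* library.

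The transcript usage test of edgeR, which asks whether shares differ between feminized males and both controls, covered 6 of the genes: *Met*, *gce*, *tai*, *Kr-h1*, *jhamt* and *Jhe*. None was called, where 1.31% of 5109 genes were. The smallest unadjusted p was 0.56, and limma's diffSplice also called none. At the level of single transcripts, 20 of the 24 passed the filter and none was called against both controls, where 0.0141% of 21208 transcripts were. *Met-RA* alone had an unadjusted p below 0.05, where 5.32% of all transcripts had, and neither DESeq2 nor limma-voom called any of the 20. Against *SPG-GAL4/+* edgeR called none of the 20 and none had an unadjusted p below 0.05, where 0% and 5.6% of all transcripts did. Against *UAS-traF/+* it called none, where 0.0613% of all transcripts were called, and 3 had an unadjusted p below 0.05 (*Met-RA*, *Met-RB* and *tai-RD*), where 7.88% of all had. DESeq2 called those 3, where it called 3.11% of all transcripts. Between the controls edgeR called none, where 0.0377% of all were called, and 3 had an unadjusted p below 0.05 (*Met-RB*, *tai-RD* and *tai-RE*), where 7.39% of all had. DESeq2 called *Met-RB* (adjusted p = 0.0049) and *tai-RD* (adjusted p = 0.00039) between the controls as well, where it called 2.49% of all. The 4 transcripts outside the filter were *tai-RC*, *tai-RH*, *to-RB* and *Jhe-RA*. The 95% Wilson intervals of the shares of *Met*, *gce*, *tai* and *Kr-h1* reach at most 1.5 percentage points to either side and cover counting error only, not the error of sharing reads among transcripts.

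*jhamt*, the gene of JH synthesis (FBgn0028841, chromosome 2L, 16365903 to 16367039, plus strand), had 75 and 94 in feminized males, against 213 and 49 in *SPG-GAL4/+* and 76 and 91 in *UAS-traF/+*. The feminized and *UAS-traF/+* libraries were close, while *SPG-GAL4/+* held both the highest and the lowest value. The log2 fold change was -0.34 (standard error 0.53, edgeR adjusted p = 1.00) against both controls and 0.02 (standard error 0.59, adjusted p = 1.00) against *UAS-traF/+*. Against *SPG-GAL4/+* it was -0.62 (standard error 0.58), or 0.79 without replicate 1 (adjusted p = 0.17) and -1.34 without replicate 2 (adjusted p = 0.017). *Cyp6g2*, a cytochrome P450 gene expressed in the corpora allata, had 155 and 192 in feminized males, against 444 and 113 in *SPG-GAL4/+* and 166 and 161 in *UAS-traF/+*. *Akh*, the hormone of the neighbouring corpora cardiaca, had 238 and 201 in feminized males, against 421 and 98 in *SPG-GAL4/+* and 287 and 256 in *UAS-traF/+*. *jhamt*, *Cyp6g2* and *Akh* thus shared their highest library, *SPG-GAL4/+* replicate 1, and their lowest, replicate 2 of that genotype. How much gland tissue stayed attached to the brains was not tested.

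Of *jhamt*'s 2 transcripts, *jhamt-RA* had 47 and 94 in feminized males, against 174.5 and 50 in *SPG-GAL4/+* and 76 and 92 in *UAS-traF/+*. *jhamt-RB* was listed in 1 feminized library, at 28, and in *SPG-GAL4/+* replicate 1, at 31, and at 0 in the other 4 libraries. Its mean of 9.5 counts was below the minimum of 10 set for single transcripts.

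The epoxide hydrolase genes lie side by side on the minus strand of chromosome 2R, *Jheh1* (FBgn0010053) at 18853434 to 18855087, *Jheh2* (FBgn0034405) at 18855767 to 18857940 and *Jheh3* (FBgn0034406) at 18860375 to 18862078, and each has 1 transcript. *Jheh1* had 1413 and 1515 in feminized males, against 1089 and 1451 in *SPG-GAL4/+* and 1520 and 1541 in *UAS-traF/+*. *Jheh2*, the most abundant, had 5367 and 5662 in feminized males, against 4390 and 5266 in *SPG-GAL4/+* and 5445 and 6030 in *UAS-traF/+*. *Jheh3* had 2424 and 2563 in feminized males, against 1929 and 2322 in *SPG-GAL4/+* and 2477 and 2494 in *UAS-traF/+*. In each gene *SPG-GAL4/+* replicate 1 was the lowest library by a clear margin and the other 5 lay above it.

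Against both controls the log2 fold changes were 0.06 (standard error 0.14), 0.06 (standard error 0.12) and 0.11 (standard error 0.11) for *Jheh1*, *Jheh2* and *Jheh3*, with edgeR adjusted p-values of 1.00 in each case. Against *UAS-traF/+* they were -0.06, -0.06 and 0.00, all smaller than their standard errors. Against *SPG-GAL4/+* they were 0.20, 0.19 and 0.23, with adjusted p-values of 1.00, 0.99 and 0.85. Without *SPG-GAL4/+* replicate 1 these became 0.02, 0.07 and 0.11, with adjusted p-values of 0.92, 0.66 and 0.31. With that library as the only one of its genotype they became 0.43, 0.33 and 0.37, with adjusted p-values of 0.019, 0.047 and 0.013, in a fit that called 2010 of 10049 genes. The 3 genes thus moved together, and with 1 library.

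In *SPG-GAL4/+* replicate 1 the longest and the shortest transcripts departed from the other libraries in opposite directions, and the genes described here differ widely in length. *tai*, with a mean transcript length of 10.7 kb, had a log2 ratio of 0.42 to the median of the other 5 libraries, against a median of 0.45 for all genes over 8 kb. *gce* (5.23 kb) had 0.25 and *Kr-h1* (4.47 kb) 0.10, against 0.27 for genes of 4 to 8 kb. *Met* (4.65 kb) was above that band with 0.77, where the median of the other 5 libraries was a feminized library at 5230 normalized counts. Both *UAS-traF/+* libraries, at 12584 and 13730, were above the 8932 of *SPG-GAL4/+* replicate 1. For *Met* this ratio thus also holds a difference between genotypes. *Jheh1*, *Jheh2* and *Jheh3* had -0.48, -0.31 and -0.36, and *Jhe* (1.98 kb) -0.63, below the -0.11 of genes of 1 to 2 kb. *jhamt* (1.02 kb) had 1.49 and *to* (1.08 kb) 0.90, both far above that value, though *to* had only 14.7 normalized counts in *SPG-GAL4/+* replicate 1. After a correction of each library for transcript length, an alternative chosen after the data were seen, *Met* was called in feminized males against *UAS-traF/+* (log2 fold change -1.43, edgeR adjusted p = 0.027) and in *SPG-GAL4/+* against *UAS-traF/+* (-1.04, adjusted p = 0.057). In that fit the *Jheh* genes of feminized males differed from *SPG-GAL4/+* by 0.25, 0.23 and 0.27 (edgeR adjusted p = 0.34, 0.29 and 0.20). The part that the length trend took in the lower *Jheh* values of *SPG-GAL4/+* was not tested.

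*Jhe*, the esterase gene (FBgn0010052, chromosome 2R, 16119793 to 16122773, plus strand), was near the limit of detection, with 13 and 20 normalized counts in feminized males, against 12 and 15 in *SPG-GAL4/+* and 20 and 24 in *UAS-traF/+*. The log2 fold change was -0.12 (standard error 0.36, edgeR adjusted p = 1.00) against both controls and -0.42 (standard error 0.34, adjusted p = 0.81) against *UAS-traF/+*. Its counts were credited to *Jhe-RB* alone in 3 libraries and to *Jhe-RC* alone in 2, so that no share can be read for its 3 transcripts.

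*to* (FBgn0039298, chromosome 3R, 25240180 to 25241668, plus strand) was as scarce in all libraries but 1. It had 7.7 and 4.9 in feminized males, against 14.7 and 8.5 in *SPG-GAL4/+* and 103.5 and 5.9 in *UAS-traF/+*. The high value belonged to *UAS-traF/+* replicate 1, and without that library the feminized males lay at or just below the level of the controls. The log2 fold change was -2.37 (standard error 1.34, edgeR adjusted p = 1.00) against both controls, -0.85 (standard error 1.43, adjusted p = 1.00) against *SPG-GAL4/+* and -3.09 (standard error 1.19, adjusted p = 0.67) against *UAS-traF/+*. Without *UAS-traF/+* replicate 1 the last value was 0.10 (adjusted p = 0.99), and with that library as the only one of its genotype it was -4.01 (adjusted p = 0.034). Between the controls, *SPG-GAL4/+* against *UAS-traF/+*, *to* changed by -2.24 (standard error 1.10, adjusted p = 0.66), by 0.95 without that library (adjusted p = 0.90) and by -3.17 with it alone (adjusted p = 0.074). *to-RA* held all the counts in 5 libraries, and *to-RB* was listed only in *UAS-traF/+* replicate 1, at 31 normalized counts beside 73 of *to-RA*.

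The profile of *to* over the 6 libraries was compared with those of 8461 genes with a mean of at least 50 counts, by the root-mean-square difference of centred log2 values. The 5 most similar were *CG5107*, *tobi*, *CG6484*, *CG18180* and *Amy-d*, with differences between 0.60 and 0.72. *Amy-d*, an amylase gene, had 71 and 69 in feminized males, against 62 and 62 in *SPG-GAL4/+* and 2173 and 61 in *UAS-traF/+*. *tobi*, an alpha-glucosidase gene, had 95 and 110 in feminized males, against 120 and 118 in *SPG-GAL4/+* and 931 and 165 in *UAS-traF/+*. Every gene of the 5 had its highest value in *UAS-traF/+* replicate 1. Since *to* itself peaked in that library, the choice by similar profile fixed this in advance. Of the 10 listed midgut enzyme genes, all with rows in the table, *alphaTry*, *Mal-A1* and *Amy-p* had 1499, 1532 and 2717 normalized counts there, against 0.98 to 57 elsewhere. *Jhedup*, a tandem relative of *Jhe*, had 40 there and 0.98 to 7.8 elsewhere. Of 6 retina genes 5 were also highest there, all but *Rh5*, with *ninaE*, the main opsin, at 2916 in that library and at 1179 to 1930 in the others. The summed level of 10 fat body genes, most of it *apolpp*, which encodes the main lipoprotein, was 46263 there and 37392 to 44769 in the others. *Lsp2*, a storage protein gene of the fat body, had 360 there and 379 to 561 in the others. The part that tissue beside the brain took in the value of *to* was not tested.

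**Figure D5:**
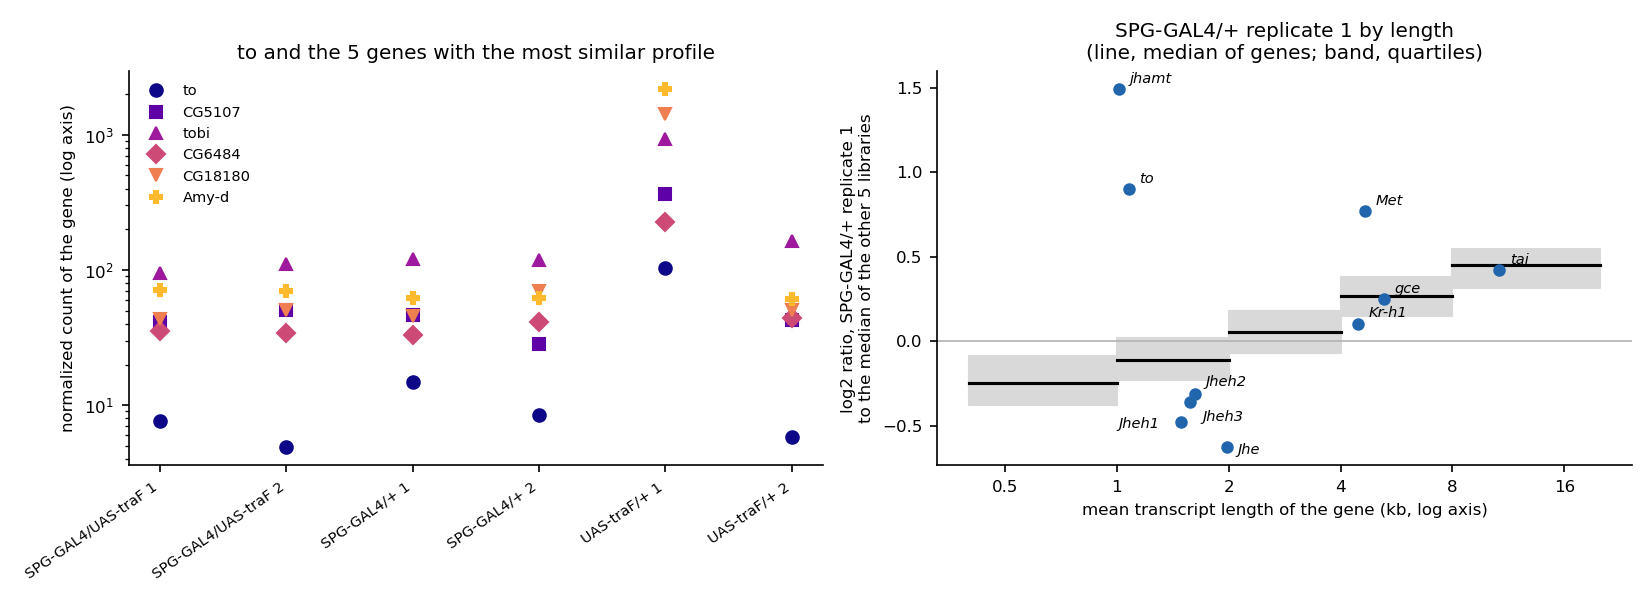
Left, normalized counts (log axis) of *to* and the 5 genes with the most similar profile in the 6 libraries, feminized males at the left. The 5 genes were chosen for their likeness to *to* and so share its peak in *UAS-traF/+* replicate 1. Right, log2 ratio of *SPG-GAL4/+* replicate 1 to the median of the other 5 libraries against mean transcript length (kb, log axis), with lines for the medians and bands for the quartiles of all tested genes in 5 length classes; the medians run between -0.25 under 1 kb and 0.45 over 8 kb, with *jhamt* at 1.49 and *Met* at 0.77.

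Compared per kilobase of transcript, the mean levels in the 4 controls were 3265 normalized counts per kb for *Jheh2*, 2176 for *Met*, 1465 for *Jheh3*, 945 for *Jheh1*, 855 for *Kr-h1*, 839 for *gce*, 433 for *tai*, 104 for *jhamt*, 30.7 for *to* and 9.0 for *Jhe*. The RNA of the hydrolases and of the receptors was thus above that of the synthesis gene and of the esterase. The control ranges of *Jheh2* and *Met* overlapped, as did those of *Met* and *Jheh3*, of *Jheh1* and *Kr-h1*, of *Jheh1* and *gce*, of *Kr-h1* and *gce*, of *jhamt* and *to* and of *to* and *Jhe*. The order within these pairs is thus not fixed by the data. *Jheh2* was above 93.4% of all genes with a count, and *Jhe* above 28.7%. In feminized males *Met* stood at 1053 and 1136 per kb, below *Jheh3* at 1537 and 1622 per kb.

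Where groups did not overlap, the counts were read against all genes. Feminized and *UAS-traF/+* libraries did not overlap in 5 of the 10 genes, where 56.7% of all genes did not: *gce* and *tai* lay above in feminized males and *Met*, *Jhe* and *Jheh1* below. Feminized and *SPG-GAL4/+* libraries did not overlap in 3 of the 10, where 28.3% of all genes did not: *Jheh2* and *Jheh3* lay above and *to* below. The control genotypes did not overlap in 5 of the 10, where 35.1% of all genes did not, with *Met*, *Jhe* and the 3 *Jheh* genes lower in *SPG-GAL4/+*. Against both controls together none of the 10 stood outside the range of the controls, where 13.7% of all genes did.

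Other genes of the pathway came from 4 lists with 35 genes in the table, of which 32 passed the filter. By edgeR none of the 32 was called in feminized males against both controls, against *SPG-GAL4/+* or against *UAS-traF/+*, and their smallest adjusted p-values were 1.00, 0.74 and 0.37. Unadjusted p-values below 0.05 numbered 2, 2 and 1 in these comparisons, where 4.68%, 5.84% and 7.14% of all genes had one. Between the controls, *SPG-GAL4/+* against *UAS-traF/+*, none was called either (smallest edgeR adjusted p = 0.31). There 5 had an unadjusted p below 0.05, 3 higher and 2 lower, where 7.71% of all genes had one. Both this count and the share over all genes were the highest of the 4 comparisons. In feminized males the medians of their log2 fold changes were -0.05, -0.09 and -0.02, against -0.01 in each comparison over all genes tested.

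Of the genes of JH synthesis upstream of *jhamt*, *Hmgs* ran between 1360 and 1418 over the 6 libraries and *Fpps*, the farnesyl pyrophosphate synthase gene, between 646 and 712. Of 8 genes that act on the corpora allata, none had an unadjusted p below 0.05 in any comparison. *ETHR*, the receptor of ecdysis triggering hormone, had 191 and 225 in feminized males, against 254 and 235 in *SPG-GAL4/+* and 207 and 231 in *UAS-traF/+*. *AstA*, which encodes an allatostatin neuropeptide, had 4562 and 4912 in feminized males, against 4200 and 4307 in *SPG-GAL4/+* and 4532 and 4150 in *UAS-traF/+*, with both feminized values above all controls and a difference of 0.14 on the log2 scale (edgeR adjusted p = 1.00).

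Among 10 partners and JH-linked targets of Met, *JhI-26* had 1298 and 1311 in feminized males, against 1122 and 1146 in *SPG-GAL4/+* and 1263 and 1258 in *UAS-traF/+*, and it was the 1 gene of this list with an unadjusted p below 0.05 in feminized males, against *SPG-GAL4/+* (edgeR adjusted p = 0.74). *JhI-21*, an amino acid transporter gene, had 2169 and 2301 in feminized males, against 1894 and 2073 in *SPG-GAL4/+* and 2401 and 2160 in *UAS-traF/+*. *Hsp83*, which encodes the chaperone Hsp90, had 24690 and 27185 in feminized males, against 29561 and 32218 in *SPG-GAL4/+* and 22439 and 24683 in *UAS-traF/+*. It was highest in *SPG-GAL4/+*, with an edgeR adjusted p of 0.55 between the controls. None of these differences in gene sums passed the threshold on adjusted p in edgeR. Single transcripts of the listed genes were not examined. The study's own calls, which include *ETHR*, *JhI-21* and *Eip93F* of these lists, came from DESeq2 on transcripts. The gene sums given here are a different measure and do not test those calls.

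The 13 relatives of *Jhe* and *to* were mostly scarce, and 10 of them were tested. Against both controls their median log2 fold change was -0.65, where that of all genes was -0.01, and 2 of the 10 had an unadjusted p below 0.05, both lower in feminized males (*Jhbp3* and *Jhbp15*), where 4.68% of all genes had. The median was -0.35 against *SPG-GAL4/+* and -0.58 against *UAS-traF/+*. *Jhbp1*, at 56, and *Jhbp12*, at 25, had their highest value in *UAS-traF/+* replicate 1, the library with the high midgut genes, and its part in these medians was not tested. *Jhbp2* was the exception in level, with 11132 and 11649 normalized counts in feminized males, against 9658 and 10986 in *SPG-GAL4/+* and 11566 and 12870 in *UAS-traF/+*. *Jhbp14* was highest in *UAS-traF/+*, with 82 and 112 in feminized males, against 74 and 123 in *SPG-GAL4/+* and 211 and 234 in *UAS-traF/+*, and differed by -1.20 on the log2 scale in feminized males against *UAS-traF/+* (edgeR adjusted p = 0.37). *Jhbp3* had 30 and 38 in feminized males, against 36 and 99 in *SPG-GAL4/+* and 79 and 63 in *UAS-traF/+*. *Jhbp15* had 12 and 6.8 in feminized males, against 22 and 12 in *SPG-GAL4/+* and 20 and 21 in *UAS-traF/+*. Both had an edgeR adjusted p of 1.00 against both controls.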

How the data were processed

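Poly-A RNA of whole male brains was sequenced in 6 libraries, 2 of each genotype. Per the labels and the Methods of the study, the authors quantified reads with Kallisto, whose release of reference transcripts is not given in the sources used here, and deposited the estimated counts, 1 whole number for each transcript and library, not normalized. Library totals came to 37608924 and 36644007 in feminized males, against 32839081 and 35471014 in *SPG-GAL4/+* and 34478865 and 35513653 in *UAS-traF/+*. Reads shared by transcripts of a gene are divided by Kallisto, so that single transcripts are less precise than their counts.

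Counts were summed per gene with Ensembl release 115 of BDGP6.54, which lacks 10 rows (0.0061% of the counts), and *JhI-1* was found there as *RNaseZ*. Tests used edgeR 4.0.16 (quasi-likelihood, under R 4.3.3), with TMM, the default filter on low counts, a prior count of 0.125 and Benjamini-Hochberg adjustment over all features. The threshold was an adjusted p below 0.1. Both controls were pooled as in the study's methods, and separate comparisons came from 1 fit with 3 genotypes. Usage was tested with diffSpliceDGE. The test scripts were tested on simulated data. Alternatives used DESeq2 1.42.0, limma 3.58.1, other filters and size factors, a replicate block and leaving out each library. Replicates differed by more than counting error in each genotype. With 2 libraries a genotype, p-values of the separate comparisons measure the spread between pools. Against both controls together, the spread also holds the difference between the 2 control genotypes.

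The 10 genes, the lists and the tests were chosen with earlier results of these data known. Transcripts with a mean of 10 counts or more were to be named, and the scarcer ones of these genes and the genes near *Met* were named after their values were seen. No sequences are printed, and coordinates belong to the annotation, not to the table.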

Additional observations from a re-analysis of the deposited data

Results flagged for a closer look

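In the 4 control libraries, *UAS-traF/+* replicate 1 lay far from the rest in *to*, at 103.5 normalized counts, where feminized males had 7.7 and 4.9 and the remaining controls 5.9 to 14.7. The same library stood apart in *to-RA*, at 72.8, where feminized males had 7.7 and 4.9 and the remaining controls 6.0 to 14.2. Both values come from the same reads. Of 24 genes and transcripts examined in this way, these 2 stood out, and chance would mark about 1 in 20.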

How the results depend on the processing

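With 0 of the 10 genes past the threshold in each comparison, *Met* alone was called against *UAS-traF/+* in feminized males with DESeq2 (1 gene), with the replicate block (1 gene, *Met*, adjusted p = 0.059) and with the length trend removed (1 gene), and in *SPG-GAL4/+* against *UAS-traF/+* with DESeq2 (1 gene) and with the length trend removed (1 gene). The replicate numbers were not taken as pairs, since deviations of same-numbered libraries correlated at -0.03, -0.19 and 0.24, and the block changed no other call of these genes. Per the study's methods, each sitting of dissection took equal numbers of flies of every genotype, without a stated link to replicate numbers. Leaving out 1 library gave between 0 and 1 genes called against both controls, 0 and 7 against *SPG-GAL4/+*, 0 and 2 against *UAS-traF/+* and 0 and 7 between the controls. These fits assume that a lone library varies like the other genotypes. The 7 genes, called without *SPG-GAL4/+* replicate 2, were *Jheh1*, *Jheh2*, *Jheh3*, *Met*, *gce*, *jhamt* and *tai*, in fits that called 2010 and 3856 of 10049 genes. Over all genes, DESeq2 called 24 against both controls, 40 against *SPG-GAL4/+*, 57 against *UAS-traF/+* and 95 between the controls, where edgeR called 0, 1, 10 and 21. Over all transcripts against both controls they called 280 and 3.

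Directions turned in the following cases, with the cause not tested. The cases are not complete. Turns of single transcripts against a single control genotype, such as *Met-RB* against *SPG-GAL4/+* (-0.72 to 0.011), are left out. Between the controls, log2 fold changes over the alternatives ran between -0.12 and 0.28 for *gce*, -0.16 and 0.45 for *tai* and -0.096 and 0.18 for *Kr-h1*. They ran between -0.76 and 1.35 for *jhamt* and -3.17 and 0.95 for *to*. With the length trend removed, *Jheh1* and *Jheh2* against *UAS-traF/+* were 0.025 and 0.020. Leaving out each library in turn, log2 fold changes against both controls ran between -0.58 and 0.24 for *jhamt*, -0.40 and 0.13 for *Jhe*, -0.034 and 0.12 for *Jheh1*, -0.012 and 0.13 for *Jheh2*, -2.08 and 2.25 for *tai-RD*, -0.10 and 0.39 for *tai-RE*, -0.49 and 0.10 for *tai-RG*, -0.94 and 0.97 for *gce-RG*, -0.22 and 0.25 for *gce-RC*, -0.44 and 1.28 for *gce-RD* and -0.17 and 0.22 for *Kr-h1-RB*. Against *SPG-GAL4/+* they ran between -0.17 and 0.23 for *gce*, -0.24 and 0.39 for *tai*, -0.083 and 0.20 for *Kr-h1*, -1.34 and 0.79 for *jhamt* and -0.025 and 0.50 for *Jhe*. Against *UAS-traF/+* they ran between -0.14 and 0.18 for *jhamt*, -0.13 and 0.021 for *Jheh2*, -0.017 and 0.052 for *Jheh3* and -4.01 and 0.10 for *to*. For *to* without *UAS-traF/+* replicate 1 or without *SPG-GAL4/+* replicate 1, no value against both controls was had, since the filter on low counts removed it.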
